A study of Mus musculus with 6 samples.

Results

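Solute carriers are the membrane proteins that move nutrients, ions, metals and waste across the plasma membrane and the membranes of organelles. The genes described here are the 96 expressed solute carrier genes outside the mitochondrial Slc25 family, of 52636 genes in the deposited table. A gene was taken if it is protein-coding, has a symbol made of Slc, a family number, the letter a and a member number, and averages 2 or more on the deposited log2 scale across all 6 libraries. The pattern found 340 genes, of which 47 belong to Slc25 and 4 (Slc2a1, Slc16a1, Slc16a3 and Slc7a11) were left out by name. Another 193 lay below the bound on the level. The level therefore chose the members, and the difference between the groups did not. A mean over both groups can still be carried by a single group: 94 members reached the bound in both groups, Slc4a11 in WT alone and Slc2a8 in Zfx F5 alone. Just inside the bound lay Slc41a3, Slc2a8 and Slc22a4, with mean log2 values of 2.34, 2.40 and 3.02. Just outside it lay Slc46a1, Slc38a6 and Slc12a5, with 1.81, 1.76 and 1.73. The pattern also takes in Slc9a3r1, which is no carrier but encodes NHERF1, a scaffold protein that anchors transporters to the cell cortex. It misses carriers whose family number is followed by another letter, such as most nucleotide sugar carriers of Slc35.

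Most carriers work by coupling. Exchangers swap substrates across the membrane, and symporters draw a substrate in with the sodium gradient that the sodium pump maintains, or with protons. Tumour cells depend on amino acid carriers in particular, among them the large neutral amino acid carrier Slc7a5, which reaches the cell surface bound to the heavy chain Slc3a2, and the glutamine carrier Slc1a5. Other carriers set cell volume and pH, fill lysosomes and Golgi, or load zinc, copper and iron.

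The cells were MC38, a mouse tumour line that the labels assign to colon, kept in RPMI-1640 with serum and glutamine and left untreated. The series describes cultured cells, whereas the extraction protocol speaks of sorted tumour cells. The 3 WT libraries carry the genotype M1E5 WT and the other 3 the genotype M1E5 Zfx F5, in which CRISPR ribonucleoprotein was used against Zfx, a zinc finger transcription factor gene of the X chromosome. The series is about knockout clones, for which the submitters report a PCR check of the edit, and F5 is read here as a single clone, so any difference of that clone from the parent line enters the comparison. Separate cultures are not stated for the 3 libraries of a genotype. The p-values therefore cover only library-to-library spread, possibly technical.

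The libraries held 18876673 to 24241864 recovered reads, and the first principal component, with 92.7% of the variance, separated the groups. Zfx itself measured 64.4 to 69.7 CPM (reads scaled to a total of 1000000 per library) in the WT libraries and 122 to 129 CPM in the libraries labelled Zfx F5. It was 1.86-fold higher in the latter (limma adjusted p = 3.47e-18), which goes against the direction of a knockout at the level of total reads, so directions below rest on the labels. Of 7 colon epithelial markers, Epcam and Krt20 had 0 reads in every library, and the summed level was 0.636 to 1.07 CPM in WT and 3.80 to 4.13 CPM in Zfx F5. The fibroblast list summed to 1227 to 1258 CPM in WT and 3374 to 3503 CPM in Zfx F5, but of its 5 genes Col3a1 and Pi16 were higher while Pdgfra and Dcn were lower. The myeloid list summed to 11.0 to 13.6 and 25.6 to 27.8 CPM, with Lyz2 the single kept gene of 3 that passed, Adgre1 at 0 and Ptprc at a mean of 0.0177 and 0.0157 CPM. Pi16 and Lyz2 reached the mean log2 value of 0 needed to be kept through their level in Zfx F5 alone. Their mean log2 values were 1.98 and 3.94 there and -0.91 and -1.19 in WT. The endothelial list summed to 12.8 to 13.7 CPM in WT and to at least 33.9 CPM in every Zfx F5 library, with Kdr at 0. Markers of lymphocytes and erythroid cells were all too low to be kept, and each of those lists summed to at most 0.236 CPM. In bulk RNA a change in the share of cells and a change per cell cannot be told apart. The part of these marker differences in the carriers' differences was not tested.

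The members as a group moved about as often as genes did in general, in both directions. Higher and lower, or rose and fell, mean Zfx F5 against WT with an adjusted p under 0.05 in limma, a linear model fitted on the deposited log2 values of all 12279 kept genes. Of 96 members 42 rose (43.8%, against 37.0% of all kept genes), 37 fell (38.5%, against 35.9%) and 17 did not pass, where 72.9% of all kept genes passed in either direction. Among genes at or above the same bound on the level, 38.4% rose and 38.5% fell. The members' shares lie near these backgrounds, so the counts alone single out nothing about carriers. The groups did not overlap for 76 members, where 74.3% of all kept genes showed this. The median log2 difference was 0.04 over the members and 0.02 over all kept genes, and the median size of the difference, whatever its sign, was 0.33 and 0.31. At least 2-fold differences were found for 3 members upward (3.12%, against 4.11% of kept genes) and 6 downward (6.25%, against 5.99%). At or above the bound, 2.75% and 5.13% of genes did so. For 48 members the groups differed by less than 1.25-fold. The read counts behind these values were 72 or more in every library for every member, and at least 100 in every library for 93 of them.

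**Figure D1:**
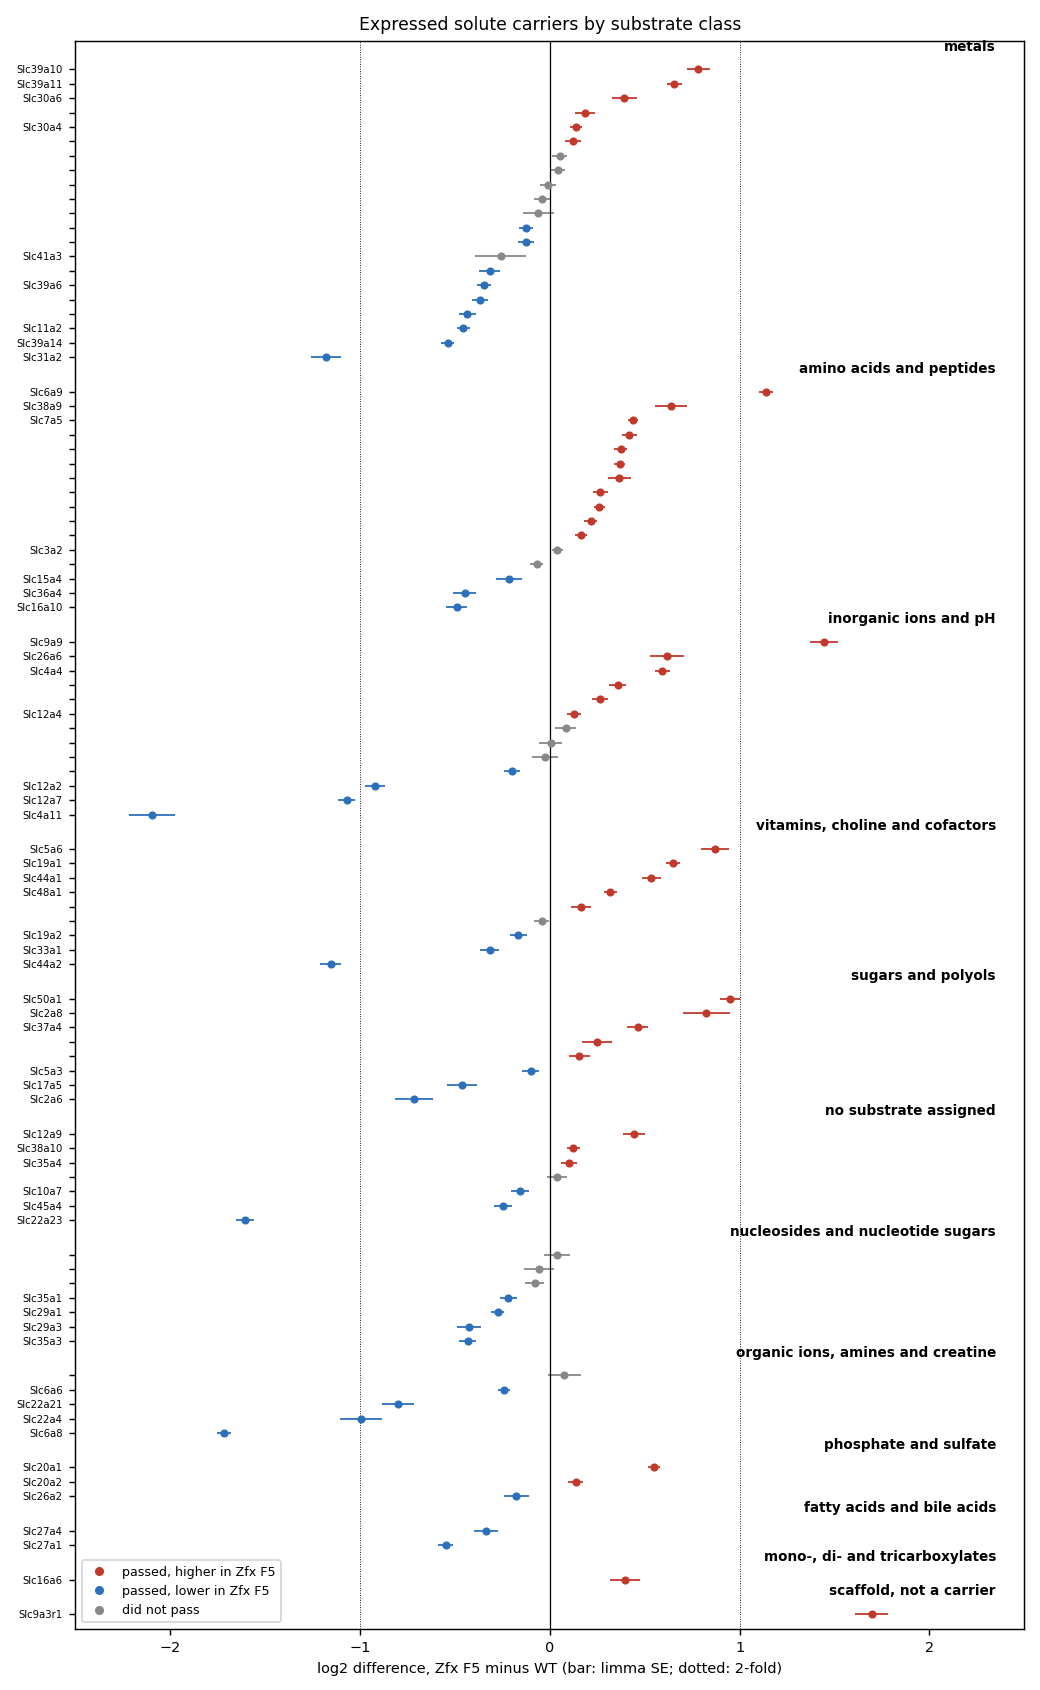
Log2 difference (Zfx F5 minus WT, horizontal axis) of 93 of the 96 members, grouped by substrate class, with the limma standard error as a bar colour for the outcome of the test and symbols for the members named by rule. Nucleoside and organic ion carriers lie at or to the left of 0 apart from Slc35a5 and Slc22a5, 11 of 16 amino acid carriers passed on the right, and 9 members lie beyond the dotted 2-fold lines.

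The fall of the creatine carrier was the clearest among the abundant members. Slc6a8 (mm10 chromosome X, 73673150 to 73682502, plus strand) brings creatine into cells with sodium and chloride. It measured 283, 283 and 277 CPM in the WT libraries and 86.9, 81.9 and 87.8 CPM in the libraries labelled Zfx F5. The groups lay far apart, and Slc6a8 fell 3.28-fold (log2 difference -1.72, SE 0.037, limma adjusted p = 5.1e-27). Per kilobase of exon it held place 10 among the members in WT at 70.9 CPM, and place 33 in Zfx F5 at 21.6 CPM.

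Slc4a11 showed the largest fall of all 96. It encodes a transporter of the bicarbonate carrier family that moves protons or hydroxide and ammonia, known for its role in the corneal endothelium. Its level (chromosome 2, 130684113 to 130697519, minus strand) was 18.9, 14.7 and 17.3 CPM in WT and 4.72, 3.80 and 3.34 CPM in Zfx F5, with no overlap. The fall was 4.28-fold (log2 difference -2.10, SE 0.120, limma adjusted p = 1.65e-14). Slc4a11 is the member that reached the bound in WT alone.

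Slc22a23, a carrier of the organic ion family without an assigned substrate, followed with 124, 129 and 127 CPM in WT and 39.3, 41.8 and 43.8 CPM in Zfx F5. It fell 3.04-fold (log2 difference -1.61, SE 0.045, limma adjusted p = 6.62e-24). The remaining 3 members with a fall of at least 2-fold belong to copper, choline and chloride transport. Slc31a2, a relative of the copper importer that sits on endosomes and lysosomes, measured 20.2, 20.1 and 19.3 CPM in WT against 8.92, 8.45 and 8.88 CPM. Slc44a2, a choline carrier-like protein of the cell surface and mitochondria, measured 49.6, 49.4 and 49.0 CPM against 22.5, 22.0 and 21.9 CPM. Slc12a7, the potassium-chloride cotransporter KCC4, measured 101, 96.5 and 96.5 CPM against 44.7, 47.3 and 47.9 CPM. For each of them every Zfx F5 library lay below every WT library, and the falls were 2.27-fold, 2.23-fold and 2.10-fold (limma adjusted p = 3.23e-14, 4.93e-18 and 1.69e-19).

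Among carriers proper, Slc9a9 and Slc6a9 rose furthest. Slc9a9 (chromosome 9, 94669909 to 95230445, plus strand) encodes NHE9, a sodium or potassium and proton exchanger of recycling endosomes. It measured 10.7, 10.2 and 11.5 CPM in WT and 30.1, 29.6 and 28.4 CPM in Zfx F5, a rise of 2.72-fold (log2 difference 1.45, SE 0.073, limma adjusted p = 2.14e-17). Slc6a9 (chromosome 4, 117834506 to 117875198, plus strand) encodes GlyT1, which imports glycine with sodium and chloride. The WT libraries held 170, 163 and 156 CPM and the others 360, 351 and 366 CPM, so the groups were well separated. The rise was 2.20-fold (log2 difference 1.14, SE 0.035, limma adjusted p = 6.7e-23). Of the annotated exon bases of Slc6a9, 27.8% are shared with Ccdc24 on the opposite strand, which stood in Zfx F5 at a mean of 9.85 CPM against 17.5 CPM in WT. The part of shared reads in the difference was not tested. The scaffold gene Slc9a3r1 had the largest rise of all members, from 14.1, 13.4 and 10.9 CPM to 43.0, 37.5 and 44.0 CPM (3.24-fold, log2 difference 1.70, SE 0.087, limma adjusted p = 8.2e-13).

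**Figure D2:**
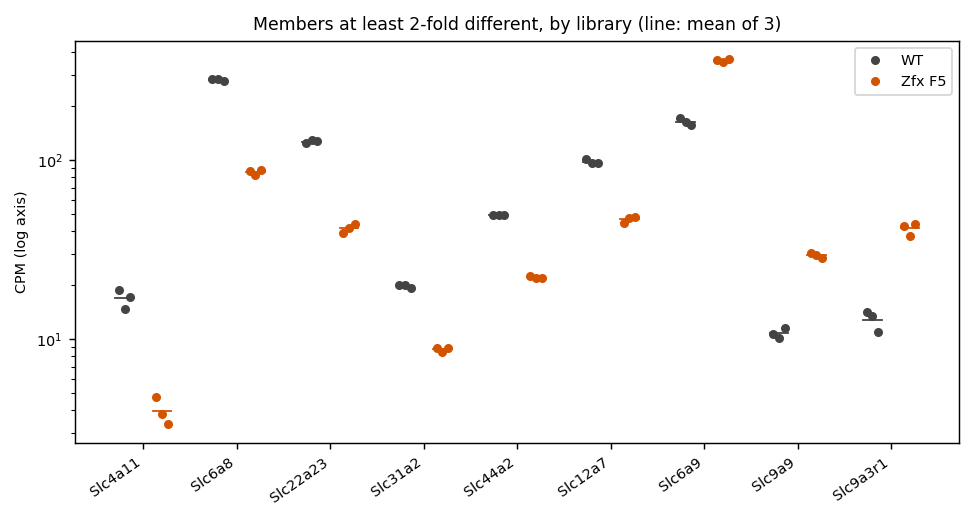
Level in CPM (log axis) of the 9 members with a difference of at least 2-fold, with a point for each library (3 WT, 3 Zfx F5) and a line at the mean of each group. The groups do not overlap for any of the 9, which were chosen by their difference, nor for 74.3% of all kept genes. Slc6a8 goes from 277 to 283 CPM in WT to 81.9 to 87.8 CPM in Zfx F5.

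Promoter windows from RefSeq (build GRCm38.p6, the assembly called mm10) were available for 71 of the 96 members, each reaching from 250 bases before to 50 bases after an annotated start. They were searched on both strands for AGGCCT, a core of the sites described for Zfx and its relatives, which reads the same on both strands. Also searched were TGATGNAA, a core of the amino acid response element, and TGCNCNC, a core of the metal response element. AGGCCT was found for 9 of 71 members (12.7%, against 11.6% of all 27025 genes with a window). Of the 9, 3 rose, 4 fell and 2 did not pass. TGATGNAA was found for 3 members (4.23%, against 4.51%), and TGCNCNC for 46 (64.8%, against 53.6%), of which 20 rose, 16 fell and 10 did not pass. The sets are unlike, since the members are expressed and the 27025 genes were not limited to expressed ones. A gene counted if any of its windows held the motif, and the number of windows per gene was not matched. A match describes letters in the window and marks no site of binding. The 250 bases before the start are printed 5′ to 3′ for the holders of AGGCCT with the largest rise and the largest fall, and for both holders of TGATGNAA that passed the test, since they set a shared motif beside opposite or equal directions. Capitals mark the motif.
Slc6a9, chr4:117855297-117855546, plus strand, the most downstream of 3 annotated starts: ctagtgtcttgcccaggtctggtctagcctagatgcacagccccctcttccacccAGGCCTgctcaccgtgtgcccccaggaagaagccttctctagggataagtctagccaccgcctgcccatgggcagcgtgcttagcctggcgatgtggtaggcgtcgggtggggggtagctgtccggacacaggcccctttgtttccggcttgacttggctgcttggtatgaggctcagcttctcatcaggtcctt
Slc22a4, chr11:54028105-54028354, minus strand: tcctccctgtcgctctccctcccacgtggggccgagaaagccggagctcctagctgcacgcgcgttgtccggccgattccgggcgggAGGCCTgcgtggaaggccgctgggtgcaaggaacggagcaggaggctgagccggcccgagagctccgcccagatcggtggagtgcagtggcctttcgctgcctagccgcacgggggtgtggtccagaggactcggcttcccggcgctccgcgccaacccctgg
Slc9a9, chr9:94669642-94669891, plus strand: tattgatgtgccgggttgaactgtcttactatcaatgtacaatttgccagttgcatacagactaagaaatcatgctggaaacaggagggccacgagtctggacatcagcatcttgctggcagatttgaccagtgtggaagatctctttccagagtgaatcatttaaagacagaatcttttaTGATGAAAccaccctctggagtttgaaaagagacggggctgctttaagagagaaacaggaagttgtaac
Slc50a1, chr3:89270571-89270820, minus strand: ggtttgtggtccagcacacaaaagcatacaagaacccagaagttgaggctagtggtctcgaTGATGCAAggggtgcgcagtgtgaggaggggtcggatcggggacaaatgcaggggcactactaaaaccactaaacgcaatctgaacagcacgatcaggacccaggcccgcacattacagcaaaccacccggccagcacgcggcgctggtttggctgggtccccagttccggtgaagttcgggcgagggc
AGGCCT starts 195 bases before the start in Slc6a9, which rose 2.20-fold, and 163 bases before it in Slc22a4, which fell 1.99-fold. TGATGNAA starts 69 bases before the start in Slc9a9 and 189 bases before it in Slc50a1, which rose 2.72-fold and 1.93-fold. The third holder of TGATGNAA, the neutral amino acid carrier gene Slc1a4, did not pass (176 and 168 CPM in WT and Zfx F5, limma adjusted p = 0.0734). Its Zfx F5 libraries all lay below the WT libraries. Slc1a4 passed as lower with scaling by the median ratio of reads (limma adjusted p = 0.00793).

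Of the 16 amino acid and peptide carriers 11 rose, 3 fell and 2 did not pass in the libraries labelled Zfx F5, where 37.0% of all kept genes rose and 35.9% fell. The class had a median log2 difference of 0.26 against 0.02 over all kept genes. The summed level of the class was 4656, 4646 and 4606 CPM in WT and 5711, 5646 and 5672 CPM in Zfx F5. All 3 WT sums lay below the Zfx F5 sums, and the ratio of the group means was 1.22.

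The exchangers of the cell surface led the class by level. Slc7a5, the light chain LAT1 that takes up leucine and other large neutral amino acids, measured 995, 997 and 970 CPM in WT and 1349, 1334 and 1333 CPM in Zfx F5. It rose 1.36-fold (log2 difference 0.44, SE 0.026, limma adjusted p = 1.58e-15). Its heavy chain Slc3a2, which carries it to the surface, had 1057, 1006 and 992 CPM in WT and 1070, 1025 and 1040 CPM in Zfx F5, with overlapping groups (log2 difference 0.04, SE 0.029, limma adjusted p = 0.241). Slc3a2 passed with a small rise under median centring and without WT replicate 1 (limma adjusted p = 0.0452 in each). Per kilobase of exon the heavy chain stood first and Slc7a5 second in WT, at 337 and 281 CPM, and the order was the other way round in Zfx F5, at 346 and 381 CPM. Slc7a6, another light chain of Slc3a2, rose 1.16-fold.

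Carriers of glutamine and of cationic amino acids rose by similar factors. Slc7a1, the main importer of arginine and lysine, measured 607, 652 and 632 CPM in WT and 802, 823 and 814 CPM in Zfx F5 (1.29-fold, limma adjusted p = 2.25e-12). Slc1a5, or ASCT2, which exchanges glutamine for other neutral amino acids, measured 246, 244 and 236 CPM against 319, 301 and 320 CPM (1.30-fold, limma adjusted p = 1.91e-11). Both had every Zfx F5 library above every WT library. Slc38a2, a sodium-coupled glutamine and alanine importer induced by amino acid shortage, rose 1.20-fold, its relative Slc38a1 1.12-fold, and Slc6a15, a carrier of branched-chain amino acids and proline, 1.34-fold.

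Amino acid carriers of lysosomes went both ways. Slc38a9, the arginine sensor and carrier through which lysosomes signal to mTORC1, was the lowest member per kilobase of exon in WT (1.26 CPM) and rose 1.56-fold, from 11.6, 10.6 and 11.6 CPM to 17.6, 16.1 and 18.9 CPM (limma adjusted p = 4.12e-08). Slc36a1, a proton-coupled exporter of small amino acids from lysosomes, rose 1.29-fold and Slc38a7 rose 1.20-fold. Slc36a4 fell 1.37-fold (28.8, 29.7 and 30.1 CPM in WT against 21.9, 20.7 and 22.2 CPM), and Slc15a4, the peptide and histidine carrier of endolysosomes, fell 1.16-fold. Slc16a10, the surface carrier TAT1 for aromatic amino acids, fell 1.41-fold, from 45.1, 46.1 and 49.0 CPM to 32.6, 35.4 and 31.8 CPM. For each of these 6 the libraries of the groups did not overlap, which also held for 74.3% of all kept genes.

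Carriers of inorganic ions showed the widest range of differences among the classes. Of 16 members 8 rose, 5 fell and 3 did not pass, beside 37.0% of all kept genes that rose and 35.9% that fell. The log2 differences ran from -2.10 (Slc4a11) to 1.45 (Slc9a9). Their sum moved little, from 949, 950 and 950 CPM to 917, 901 and 932 CPM. Cation-chloride cotransporters set cell volume and intracellular chloride. Slc12a2, the sodium-potassium-chloride importer NKCC1, fell 1.89-fold, from 71.6, 69.7 and 75.6 CPM to 36.3, 37.8 and 40.5 CPM (limma adjusted p = 1.92e-16). Together with Slc12a7 this put an importer and an exporter of chloride lower, while the exporter Slc12a4 (KCC1) rose 1.09-fold. The call for Slc12a4 was lost without Zfx F5 replicate 1 (limma adjusted p = 0.0556).

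Among the proton exchangers, Slc9a8 of the Golgi rose 1.20-fold beside the larger rise of Slc9a9. Slc9a5, an exchanger of the surface and endosomes, did not pass (39.2 and 41.5 CPM). Of the bicarbonate carriers, the sodium-bicarbonate cotransporter Slc4a4 rose 1.51-fold (86.2, 83.2 and 89.6 CPM in WT against 128, 128 and 134 CPM) and the chloride-bicarbonate exchanger Slc4a2 1.28-fold. Slc4a7, another sodium-bicarbonate cotransporter, fell 1.15-fold, and the anion exchanger Slc26a6 rose 1.53-fold. Slc4a2 shares 13.7% of its annotated exon bases with Fastk on the opposite strand, at 46.9 and 53.6 CPM.

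Metal carriers, the largest class with 21 members, were split, with 6 higher, 9 lower and 6 that did not pass. Of all kept genes 37.0% rose and 35.9% fell, which is also the background for the zinc families below. The median log2 difference was -0.06. Zinc exporters and vesicular zinc loaders of Slc30 had 2 of 6 higher and 3 lower. Zinc importers of Slc39 had 3 of 9 higher and 2 lower. Slc30a4, which loads zinc into vesicles, was the most abundant metal carrier at 668, 701 and 697 CPM in WT and 756, 777 and 740 CPM in Zfx F5, a rise of 1.10-fold, and Slc30a6, a zinc loader of the secretory pathway, rose 1.31-fold. Slc39a10, a surface zinc importer, rose 1.72-fold (30.7, 32.6 and 37.7 CPM against 59.4, 57.5 and 56.3 CPM, limma adjusted p = 9.29e-12) and Slc39a11 rose 1.58-fold (80.3, 83.1 and 78.3 CPM against 129, 125 and 127 CPM). Slc39a14, which imports zinc, iron and manganese, fell 1.45-fold, from 207, 215 and 208 CPM to 144, 145 and 144 CPM, and Slc39a6, another zinc importer, fell 1.27-fold. Slc30a1, the surface zinc exporter, fell 1.25-fold (44.3, 49.8 and 44.3 CPM against 35.9, 37.2 and 37.8 CPM). In each of these zinc carriers the groups did not overlap, which also held for 74.3% of all kept genes.

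Of the 6 carriers of other metals 1 rose and 4 fell, against 37.0% and 35.9% of all kept genes. Slc11a2, or DMT1, which brings iron out of endosomes, fell 1.37-fold (145 CPM in each WT library against 104, 106 and 107 CPM). The magnesium carriers Slc41a2 and Slc41a1 fell 1.35-fold and 1.09-fold, while Slc41a3 did not pass (5.52 and 4.61 CPM). Slc31a1, the surface copper importer CTR1, had 141, 137 and 149 CPM in WT and 156, 161 and 148 CPM in Zfx F5. The groups overlapped, and its rise of 1.09-fold (limma adjusted p = 0.00729) was lost in 4 alternatives, including those that left out the second WT or the second Zfx F5 library (adjusted p of 0.0610 to 0.0802 over the 4). Its neighbour Slc31a2 is the member with the 2.27-fold fall.

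Vitamin, choline and cofactor carriers had 5 of 9 higher, 3 lower and 1 that did not pass, where 37.0% of all kept genes rose and 35.9% fell. Slc5a6, the sodium-coupled carrier of biotin and pantothenate, rose 1.83-fold, from 11.7, 12.1 and 12.0 CPM to 22.3, 22.6 and 20.6 CPM (limma adjusted p = 7.48e-12). It shares 9.92% of its annotated exon bases with Atraid on the opposite strand, which had 25.5 and 25.6 CPM. Slc19a1, the reduced folate carrier, rose 1.57-fold (134, 128 and 130 CPM against 206, 204 and 205 CPM, limma adjusted p = 1.02e-16), whereas its relative Slc19a2 for thiamine fell 1.12-fold. Slc44a1, the better known choline carrier of the choline carrier-like family, rose 1.45-fold (45.5, 47.3 and 51.2 CPM against 69.0, 72.0 and 67.3 CPM) beside the fall of Slc44a2. The lysosomal heme carrier Slc48a1 rose 1.25-fold, and Slc33a1, which brings acetyl-CoA into the endoplasmic reticulum, fell 1.25-fold.

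**Figure D3:**
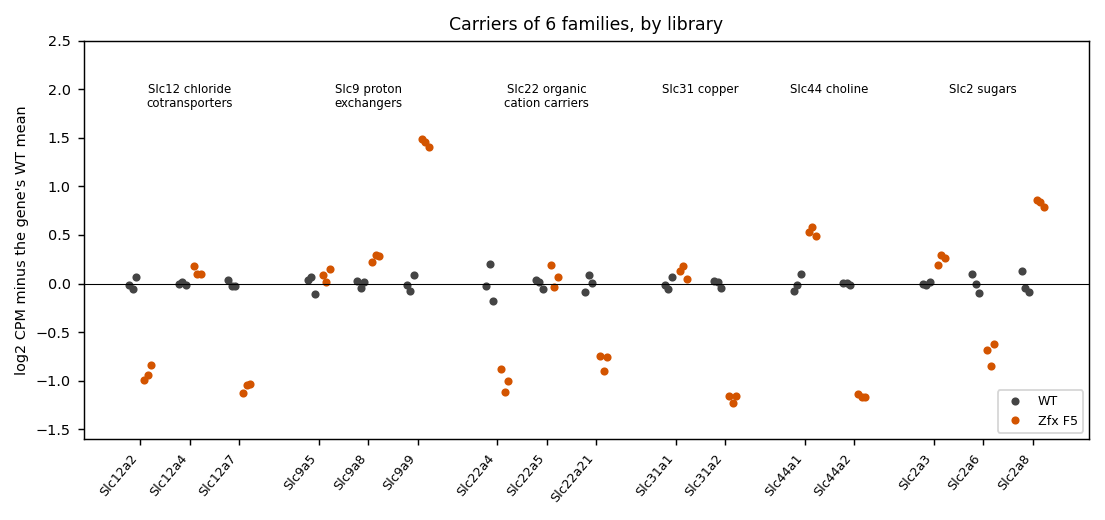
Level of members of 6 families in each library, as log2 CPM minus the mean of the gene's own WT libraries (3 WT and 3 Zfx F5 points per gene). Slc12a7, Slc31a2 and Slc44a2 lie below -1 in Zfx F5 while their relatives Slc12a4, Slc31a1 and Slc44a1 lie above 0.

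Sugar and polyol carriers had 5 of 8 higher and 3 lower, against 37.0% and 35.9% of all kept genes. Slc50a1, a sugar carrier of the Golgi and cell surface, rose 1.93-fold, from 29.4, 31.1 and 27.8 CPM to 56.5, 56.2 and 57.8 CPM (limma adjusted p = 3.52e-16). The intracellular hexose carriers Slc2a8 and Slc2a6 moved in opposite directions. Slc2a8 rose 1.77-fold (4.32, 3.81 and 3.71 CPM against 7.17, 7.03 and 6.81 CPM) and the lysosomal Slc2a6 fell 1.64-fold (12.1, 11.3 and 10.6 CPM against 7.03, 6.28 and 7.39 CPM). Slc2a3, a glucose importer of high affinity, rose 1.19-fold at a low level (12.2, 12.1 and 12.4 CPM against 14.0, 15.0 and 14.7 CPM). Slc37a4, which takes glucose 6-phosphate into the endoplasmic reticulum, rose 1.38-fold, and the lysosomal sialic acid exporter Slc17a5 fell 1.38-fold. Slc5a3, the myo-inositol importer and the most abundant of the class in CPM, measured 168, 182 and 181 CPM in WT and 153, 166 and 176 CPM in Zfx F5. Those groups overlapped, and its fall of 1.07-fold (limma adjusted p = 0.0472) was lost in 6 alternatives, 4 of which each left out a library: WT replicate 2 or 3, or Zfx F5 replicate 1 or 2 (adjusted p of 0.0778 to 0.334 over the 6). Slc5a3 shares 159 exon bases with Mrps6 on the same strand. The rise of Slc37a3 (1.11-fold) was lost in 5 alternatives, with the second WT or the second Zfx F5 library left out among them (limma adjusted p of 0.0504 to 0.0968 over the 5).

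None of the 7 members that carry nucleosides and nucleotide sugars rose. Slc35 carriers outside the symbol pattern are not counted here, and they went both ways. Among them Slc35b2 and Slc35c2 rose 1.29-fold and 1.10-fold, while Slc35c1 and Slc35f6 fell 1.18-fold and 1.23-fold. Of the 7 members 4 fell in limma and 3 did not pass, beside 37.0% of all kept genes that rose and 35.9% that fell. The class lay at a median log2 difference of -0.22, and the class summed to 533, 529 and 513 CPM in WT and 447, 427 and 437 CPM in Zfx F5. Slc29a1, the equilibrative nucleoside carrier ENT1 that also brings in nucleoside drugs, measured 249, 245 and 232 CPM in WT and 204, 194 and 201 CPM in Zfx F5, a fall of 1.21-fold (limma adjusted p = 3.1e-08). The lysosomal Slc29a3 fell 1.34-fold, and Slc35a3, a Golgi carrier of UDP-N-acetylglucosamine, fell 1.35-fold (105, 106 and 100 CPM against 80.1, 73.5 and 76.6 CPM). Slc35a1, the carrier of CMP-sialic acid, fell 1.16-fold. Slc29a2 (44.5 and 42.1 CPM), Slc35a2 (16.9 and 16.2 CPM) and Slc35a5 (22.0 and 22.6 CPM) did not pass, and Slc29a2 passed as lower with scaling by the median ratio of reads (limma adjusted p = 0.0406).

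Organic ion, amine and creatine carriers had 4 of 5 members lower and none higher, beside 35.9% and 37.0% of all kept genes. The class sum went from 613, 625 and 617 CPM to 360, 366 and 368 CPM. Slc6a8 accounts for most of that drop. Slc6a6, the taurine importer, fell 1.18-fold (291, 299 and 302 CPM against 243, 259 and 252 CPM, limma adjusted p = 1.14e-07). Slc22a4, Slc22a21 and Slc22a5 lie beside each other on chromosome 11 and belong to the carnitine and organic cation carriers. Slc22a4, which takes up ergothioneine, measured 11.2, 13.2 and 10.1 CPM in WT and 6.23, 5.26 and 5.71 CPM in Zfx F5 (limma adjusted p = 1.75e-09). Slc22a21, only 2.79 kb away, measured 16.0, 18.0 and 17.0 CPM against 10.1, 9.11 and 10.0 CPM, a fall of 1.74-fold. Slc22a5, the high-affinity carnitine importer 58.3 kb beyond, did not pass (12.1, 11.9 and 11.3 CPM against 13.4, 11.5 and 12.3 CPM, limma adjusted p = 0.442). The lower level of the cluster in Zfx F5 thus covered 2 of its 3 members. Reads of 50 bases can fall on stretches that these related genes share, which makes their separate levels less certain.

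Of the 3 phosphate and sulfate carriers 2 rose and 1 fell, and both fatty acid carriers fell. Of all kept genes 37.0% rose and 35.9% fell. Slc20a1, a sodium-phosphate importer of the cell surface that also serves as a retrovirus receptor, rose 1.46-fold, from 268, 264 and 275 CPM to 388, 400 and 391 CPM (limma adjusted p = 5.64e-16), and its relative Slc20a2 rose 1.10-fold. The sulfate carrier Slc26a2 had overlapping groups (27.6, 29.9 and 31.1 CPM against 26.2, 28.3 and 24.0 CPM). Its fall of 1.13-fold (limma adjusted p = 0.0190) was lost in 5 alternatives, and leaving out WT library 2, WT library 3 or Zfx F5 library 3 was each enough (adjusted p of 0.0521 to 0.160 over the 5). Both fatty acid uptake proteins were lower: Slc27a1, or FATP1, fell 1.46-fold (219, 217 and 203 CPM against 149, 137 and 150 CPM, limma adjusted p = 3.35e-13) and Slc27a4 fell 1.26-fold. Slc16a6, linked to export of ketone bodies in zebrafish liver, was the single carboxylate carrier among the members and rose 1.31-fold. Of its annotated exon bases 21.5% are shared with Amz2 on the opposite strand, which had 82.7 and 59.6 CPM against 14.1 and 18.6 CPM for Slc16a6.

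Members without an assigned substrate had 3 of 7 higher, 3 lower and 1 that did not pass, near the 37.0% and 35.9% of all kept genes. Beside Slc22a23, Slc45a4 fell 1.19-fold and Slc10a7 1.12-fold. Slc12a9 rose 1.36-fold (34.8, 33.7 and 33.4 CPM against 46.0, 42.9 and 50.0 CPM), and Slc38a10, the most abundant of these, rose 1.09-fold. The rise of Slc35a4 (1.07-fold, limma adjusted p = 0.0363) came with overlapping groups and was lost in 7 of 14 alternatives, with library 2 or 3 of either group left out among them (limma adjusted p of 0.0669 to 0.180 over the 7).

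Members also differed in level by more than 2 orders of magnitude, and that order largely held between the groups. Per kilobase of exon the WT means ran from 1.26 to 337 CPM with a median of 15.3 CPM. Of the 10 highest members in WT, 8 were among the 10 highest in Zfx F5. Slc6a8 went from place 10 to place 33 and Slc27a1 from place 9 to place 13. Neighbours on a chromosome, within 200 kb of each other, were Slc38a1 with Slc38a2, Slc31a2 with Slc31a1, and the Slc22 cluster. The first pair rose together (log2 differences 0.16 and 0.26), and the copper pair, 62.3 kb apart, had log2 differences of -1.18 and 0.12.

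**Figure D4:**
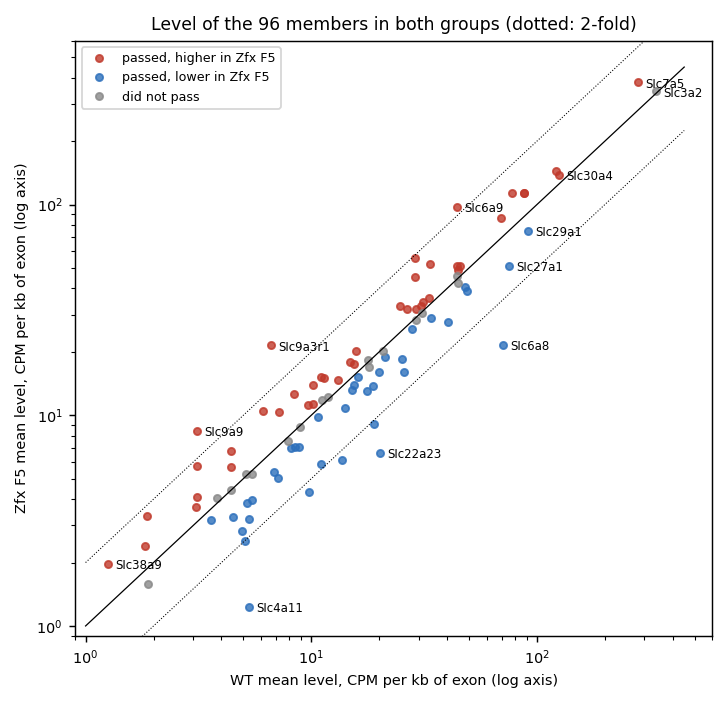
Mean level of each of the 96 members in WT (horizontal) and Zfx F5 (vertical), as CPM per kilobase of exon on log axes, with the diagonal as a solid line and 2-fold differences as dotted lines. Most members lie near the diagonal over the whole range of levels, and Slc4a11, Slc6a8 and Slc22a23 lie furthest below it.

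Genes that work with the carriers were read from a list of partners, pumps and regulators. Of the 3 kept kinases of cation-chloride cotransporters 2 fell and 1 did not pass, where 35.9% of all kept genes fell. Stk39, which encodes SPAK, the kinase that activates NKCC1 and inhibits the potassium-chloride cotransporters, fell 4.42-fold, from 125, 126 and 123 CPM to 29.0, 27.9 and 27.6 CPM (limma adjusted p = 4.46e-27). Its upstream kinase Wnk1 fell 1.30-fold (488, 540 and 564 CPM against 382, 423 and 413 CPM), and its relative Oxsr1 did not pass (147 and 141 CPM). Oxsr1 passed as lower with scaling by the median ratio of reads (limma adjusted p = 0.0196).

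All 3 zinc response genes rose, where 37.0% of all kept genes did: Mt2 2.17-fold (112, 107 and 108 CPM against 243, 227 and 239 CPM), Mtf1, the zinc-sensing transcription factor, 1.31-fold and Mt1 1.26-fold. Slc30a1, known as a target of Mtf1, was lower, as given above. Of 6 iron genes 3 rose and 2 fell, beside 37.0% and 35.9% of all kept genes. The transferrin receptor gene Tfrc was 2.08-fold higher (218, 217 and 230 CPM against 461, 471 and 453 CPM) and Aco1, which encodes an iron regulatory protein, 1.31-fold lower. Of 4 copper genes 3 were kept and all 3 fell, beside 35.9% of all kept genes. The chaperones Ccs and Atox1 fell 1.56-fold and 1.20-fold with no overlap between the groups, which held for 74.3% of all kept genes. The copper pump gene Atp7a had 29.3, 35.2 and 33.8 CPM in WT and 27.4, 29.2 and 31.4 CPM in Zfx F5, which overlap. Its fall of 1.12-fold (limma adjusted p = 0.0385) was lost in 7 of 14 alternatives, 4 of which left out WT library 2 or 3 or Zfx F5 library 1 or 2 (adjusted p of 0.0781 to 0.211 over the 7). Its relative Atp7b was too low to be tested, with 1, 1 and 0 reads in WT and 6, 5 and 12 reads in Zfx F5. Bsg, the chaperone of monocarboxylate carriers, rose 1.34-fold. The 1.06-fold rise of its relative Emb (limma adjusted p = 0.0339) was lost in 7 alternatives, among them without WT library 2 or any single Zfx F5 library (adjusted p of 0.0631 to 0.204 over the 7). Atf4, a transcription factor of the amino acid response, rose 1.32-fold, the lysosomal regulator Tfeb fell 1.35-fold, and Nfe2l2 fell 1.07-fold, a call lost in 4 alternatives, among them without Zfx F5 library 1 or 3 (limma adjusted p of at least 0.0537 in each of the 4).

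Carriers with a symbol outside the pattern, 41 in the table, had 21 kept genes, of which 7 rose, 6 fell and 8 did not pass. Of all kept genes 37.0% rose and 35.9% fell. Slc9b1, a sodium-proton exchanger known from sperm, rose from 0.385, 0.424 and 0.413 CPM to 4.58, 3.29 and 3.60 CPM. Slco3a1, an organic anion carrier, rose from 1.54, 1.75 and 1.90 CPM to 6.65, 6.93 and 6.11 CPM. They are named because their rises were the largest among these kept genes. Slc9b1 was kept through its level in Zfx F5 alone, with a mean log2 value of 1.93 there and -1.18 in WT (9, 8 and 10 reads). Among the kept genes Slc35e4 had the largest fall, 1.62-fold (198, 199 and 184 CPM against 124, 114 and 121 CPM). Slc35f1, too low on average to be tested, had 57, 37 and 48 reads in WT and 3, 3 and 11 reads in Zfx F5.

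The 193 matching carriers below the bound hold larger differences at few reads. Of these, 74 had no read in any library and 12 were kept in the fit. Of the 12, 4 were higher, 6 lower and 2 did not pass, where 37.0% of all kept genes rose and 35.9% fell. Slc22a15, a relative of Slc22a23 also without an assigned substrate here, had 181, 145 and 195 reads in the WT libraries and 27, 24 and 15 in the libraries labelled Zfx F5 (log2 difference -2.91, SE 0.198, limma adjusted p = 6.63e-13). Slc45a3 had 104, 93 and 83 reads against 11, 20 and 15, and the urea carrier gene Slc14a1 had 109, 100 and 106 reads against 30, 27 and 31. Slc45a3 was kept through its level in WT alone, with a mean log2 value of 2.09 there and -0.44 in Zfx F5. Slc37a2, among the 4 higher, was kept through its level in Zfx F5 alone, at 0.59 there and -0.22 in WT. Slc12a5, the potassium-chloride cotransporter KCC2 of neurons, had 49, 43 and 60 reads against 96, 96 and 110, a rise of 2.06-fold. These genes, Slc22a15, Slc45a3 and Slc14a1 among them, were chosen after their values were seen, apart from Slc12a5, which lies just outside the bound.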

How the data were processed

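RNA sequencing values of 6 MC38 libraries (3 WT, 3 Zfx F5) were used. The authors deposited log2 values in a table named as normalized. The sources used here do not give the normalization, the aligner or the counter. Both mm10 and GRCh38 appear in the submitters' processing notes. From the values, the deposited log2 scale is log2(CPM + 0.0353), since the 6 columns share a lowest value of -4.82 and sum to 1000000 CPM after the log is undone. Turned back into reads, 100% of the values that amount to at most 300 reads were whole to within 0.05, which gave recovered reads per library of 18876673 to 24241864. A count of 0 allows up to 3 reads, or 0.124 to 0.159 CPM, for counting error only. Other deposited columns used were the size column, equal to the summed exon length in all 52636 rows, and 0 sample columns were left unused. CPM values in the text are the deposited values with the log undone and the constant subtracted.

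Differences were tested with limma (version 3.58.1, R 4.3.3) on the deposited log2 scale. The model had group as its term, moderation was robust with a trend, tests were 2-sided, and Benjamini-Hochberg adjustment ran over 12279 genes with a mean log2 value of at least 0. Fold changes are on the log2(CPM + 0.0353) scale. The script was tested on simulated data. An exact permutation test of a single gene in 3 against 3 libraries cannot go below 0.1. Positions come from GENCODE M21 (mm10), in which the deposited exon coordinates of 94 of 96 members lie inside the annotated gene. Exons of 28 members overlap another gene's, 14 of them a gene with at least 1 CPM. Shares of exon bases refer to all exons annotated in GENCODE, which can exceed the deposited size. How much of an overlap lies in the exons that were counted was not tested. Per the labels' protocols the libraries were made with Nextera XT, which does not mark strand.

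The members, substrate classes and lists were chosen with earlier results of these data known. Members were named by rule if at least 2-fold changed, among the 3 furthest up or down past the threshold in their class, among the 2 highest per exon length in their class, or among the 3 nearest the bound on either side; kept genes of the partner list could be named too. Other members, such as Slc7a1, Slc1a5, Slc38a2, Slc9a8 and Slc31a1, were chosen after their values were seen. Alternatives covered scaling, filters, added constants, moderation, voom on recovered reads, the bound on the level, and leaving out each library. Some genes are not reported here by name or value, and 3 members are not drawn in the plots of classes and families; counts and sums include them.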

Additional observations from a re-analysis of the deposited data

How the results depend on the processing

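The counts of members that rose or fell changed little: 38 to 43 rose and 34 to 39 fell over the alternatives in scaling, filter, added constant, moderation and test and with each library left out. Leaving out a library in turn gave 39 to 43 higher and 35 to 37 lower members, 3 members at least 2-fold higher each time, and 6 to 7 at least 2-fold lower. With a bound of 0 in place of 2 on the mean log2 value, 10 carriers were at least 2-fold lower instead of 6. With 5 CPM added this count was 4.

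Of 79 called members 70 kept their call in all 14 alternatives run for each gene. The 9 that lost it in at least 1 were Slc12a4, Slc26a2, Slc30a7, Slc31a1, Slc35a4, Slc37a3, Slc39a3, Slc52a2 and Slc5a3, each at most 1.14-fold; the cause was not tested beyond the smaller sample where a library was left out. No called member changed sign. Another 5 members that did not pass did so in at least 1 alternative. The median log2 difference of all kept genes was 0.02 as deposited, 0.05 with median centring and -0.01 with the median ratio of reads. No paired analysis was possible because the replicate numbers were given in accession order and pair nothing. Depth limits the carriers below the bound more than the members.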
